A study of Homo sapiens with 6 samples.

Results

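The small nucleolar RNAs (snoRNAs) and Cajal body RNAs of a human glioblastoma cell line were compared between control cells and cells treated with sh-JMJD1C. A gene was taken when its symbol begins with SNORA, SNORD or SCARNA followed by a digit and when it was above 0 in at least 3 of the 6 libraries. This gave 106 of the 552 annotated genes with such symbols, among 58174 genes in each deposited table. They were 52 of 213 H/ACA snoRNAs (SNORA symbols), 38 of 314 C/D snoRNAs (SNORD symbols) and 16 of 25 Cajal body RNAs (SCARNA symbols). The genes were thus chosen by the deposited levels themselves, so the counts of detected genes are a description and were not tested.

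All libraries came from LN-229, an established glioblastoma line, and held nuclear-enriched RNA sequenced after removal of ribosomal RNA. The 3 libraries labelled control-NC and the 3 labelled sh-JMJD1C (a name that usually stands for a short hairpin RNA against that transcript) share the cell line. No other allele, agent or time of treatment is given in the labels. They do not say whether the libraries of a group were separate cultures, so the p-values measure only the spread between these libraries, which may be technical. JMJD1C belongs to the JmjC family of histone demethylases.

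SnoRNAs guide the chemical modification of other RNAs in the nucleus. C/D snoRNAs carry short conserved C and D boxes, bind fibrillarin and direct 2'-O-methylation of ribosomal RNA, and H/ACA snoRNAs carry an ACA box near the 3' end, bind dyskerin and direct the conversion of uridine to pseudouridine. Cajal body RNAs use the same boxes and proteins to modify the small nuclear RNAs of the spliceosome. Most human snoRNAs are cut out of the introns of host genes, and a few, such as U3, U8, U13, U14 and U17, take part in cleavage or folding of the precursor of ribosomal RNA.

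Libraries held between 544442 reads (control 1) and 2960454 reads (control 3), and between 15926 and 25734 genes were above 0. JMJD1C itself was at 3.97, 2.25 and 4.28 scaled FPKM (fragments scaled to gene length and library total, divided by a median-ratio factor per library) in control 1 to 3 and at 1.03, 0.251 and 0.657 in sh-JMJD1C 1 to 3, so the groups did not overlap. Its log2 fold change was -1.82 (SE 0.41, limma adjusted p = 0.118), and the two-sided exact permutation test gave p = 0.10, the smallest that 3 libraries against 3 allow. The fit on recovered reads (limma-voom) gave -2.49 with an adjusted p of 0.0254. VIM and EGFR, expressed in many glioblastoma lines, were at 53.4 ± 8.67 and 35.2 ± 0.290 scaled FPKM in the controls, and GFAP and SOX2, markers of astrocytes and neural stem cells, were under 0.5 in each library (mean ± SD, n = 3, as for all levels below). Control 1 had 25.03% of its reads on 1 gene (ENSG00000281181), and sh-JMJD1C 1 resembled the controls in the small RNAs described here, so results are also given without these libraries.

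Detection differed with the class and with the position of the gene. Of the Cajal body RNAs 64.0% were detected, of the H/ACA snoRNAs 24.4% and of the C/D snoRNAs 12.1%. Genes whose sequence overlaps an exon of another gene on the same strand were detected in 8 of 181 cases (4.42%), and genes without such an overlap in 98 of 371 (26.4%). The difference was present in each class: 3 of 67 against 49 of 146 for H/ACA, 3 of 105 against 35 of 209 for C/D and 2 of 9 against 14 of 16 for Cajal body RNAs. Length also differed, since the median length was 81 bases for annotated C/D, 133 for H/ACA and 140 for Cajal body RNAs. Among C/D snoRNAs 12 of 155 genes of at most 80 bases were detected, 12 of 123 longer ones up to 100, 7 of 14 up to 120, 1 of 4 up to 140, 1 of 6 up to 200 and 5 of 12 above 200 bases. The share detected did not rise steadily with length. How the counting treated overlapping genes and short fragments is not given in the sources used here, and the part of either in detection was not tested.

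**Figure D1:**
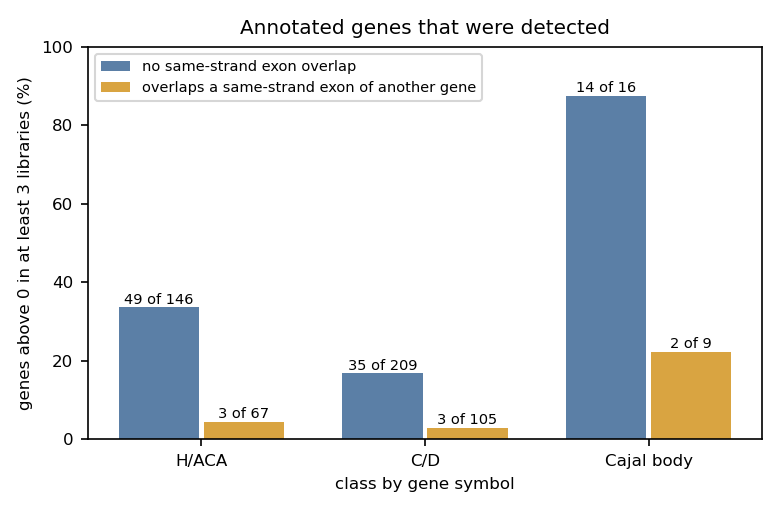
Bars give the percentage of annotated genes above 0 in at least 3 of the 6 libraries, by class and by whether the gene overlaps a same-strand exon of another gene in GENCODE 29; the counts stand above the bars. In each class the bar for genes with such an overlap is the lower one, from 2.86% (C/D) to 22.2% (Cajal body).

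Among the annotated genes outside the 106, 386 were listed at 0 in all libraries and 60 were above 0 in 1 or 2 libraries, with 178 reads in all. Several RNAs with known roles in the maturation of ribosomal RNA were listed at 0 in every library. These were SNORD118 (U8), SNORD22, SNORA73A (1 of the 2 U17 genes), SNORD14B, SNORD14C and SNORD14D (U14 copies) and every gene named SNORA62. Apart from the SNORA62 genes, 1 of which has it, all have a same-strand exon overlap. SNORA63 genes had at most 1 read each, and TERC, the H/ACA RNA of telomerase, had 2 reads, both in sh-JMJD1C 1. RNU2-1, RMRP and RN7SK, which most cells hold in large amounts, were also listed at 0, as was RNU12. Such a 0 is therefore reported only as the listed value.

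The threshold of 3 libraries fell among genes with few reads. Just inside it, SNORA22B had 1, 0 and 0 reads in control 1 to 3, against 0, 7 and 4 in sh-JMJD1C 1 to 3, SNORD100 had 0, 4 and 0 against 0, 4 and 3, and SCARNA14 had 2, 0 and 1 against 0, 0 and 4. Just outside, SNORA15 had 0, 0 and 1 reads against 0, 0 and 2, SNORD111B had 0, 0 and 1 against 0, 0 and 1, and SCARNA12 had 0, 0 and 0 against 0, 2 and 1. In exactly 3 libraries were 4 H/ACA, 14 C/D and 1 Cajal body RNA, and in exactly 2 libraries were 9, 13 and 3. Only 44 of the 106 were above 0 in all libraries, and 2 (SNORD83A and SNORD3B-2) were above 0 in all sh-JMJD1C libraries and in no control library. The number above 0 per library was 68, 81 and 99 in the controls, against 63, 96 and 104 with sh-JMJD1C, lowest in the libraries numbered 1.

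Few genes carried most reads. SNORA73B, a U17 RNA needed for an early cleavage of the ribosomal RNA precursor, held 41.9% of the 46463 reads of all 106 genes and 69.0% of the H/ACA reads. SNORD3A, a gene of the U3 RNA that acts in the same cleavages, held 47.6% of the C/D reads and SNORD17 34.3%. SCARNA7 held 36.7% of the Cajal body reads. The median gene had 52 reads over the 6 libraries, and 57 of the 106 had fewer than 60. In a library, 1 read of a 134-base RNA, the median length, was worth 15.8, 3.08 and 1.92 scaled FPKM in control 1 to 3, against 4.24, 4.91 and 5.15 in sh-JMJD1C 1 to 3. Levels below these values were not detectable at this depth.

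**Figure D2:**
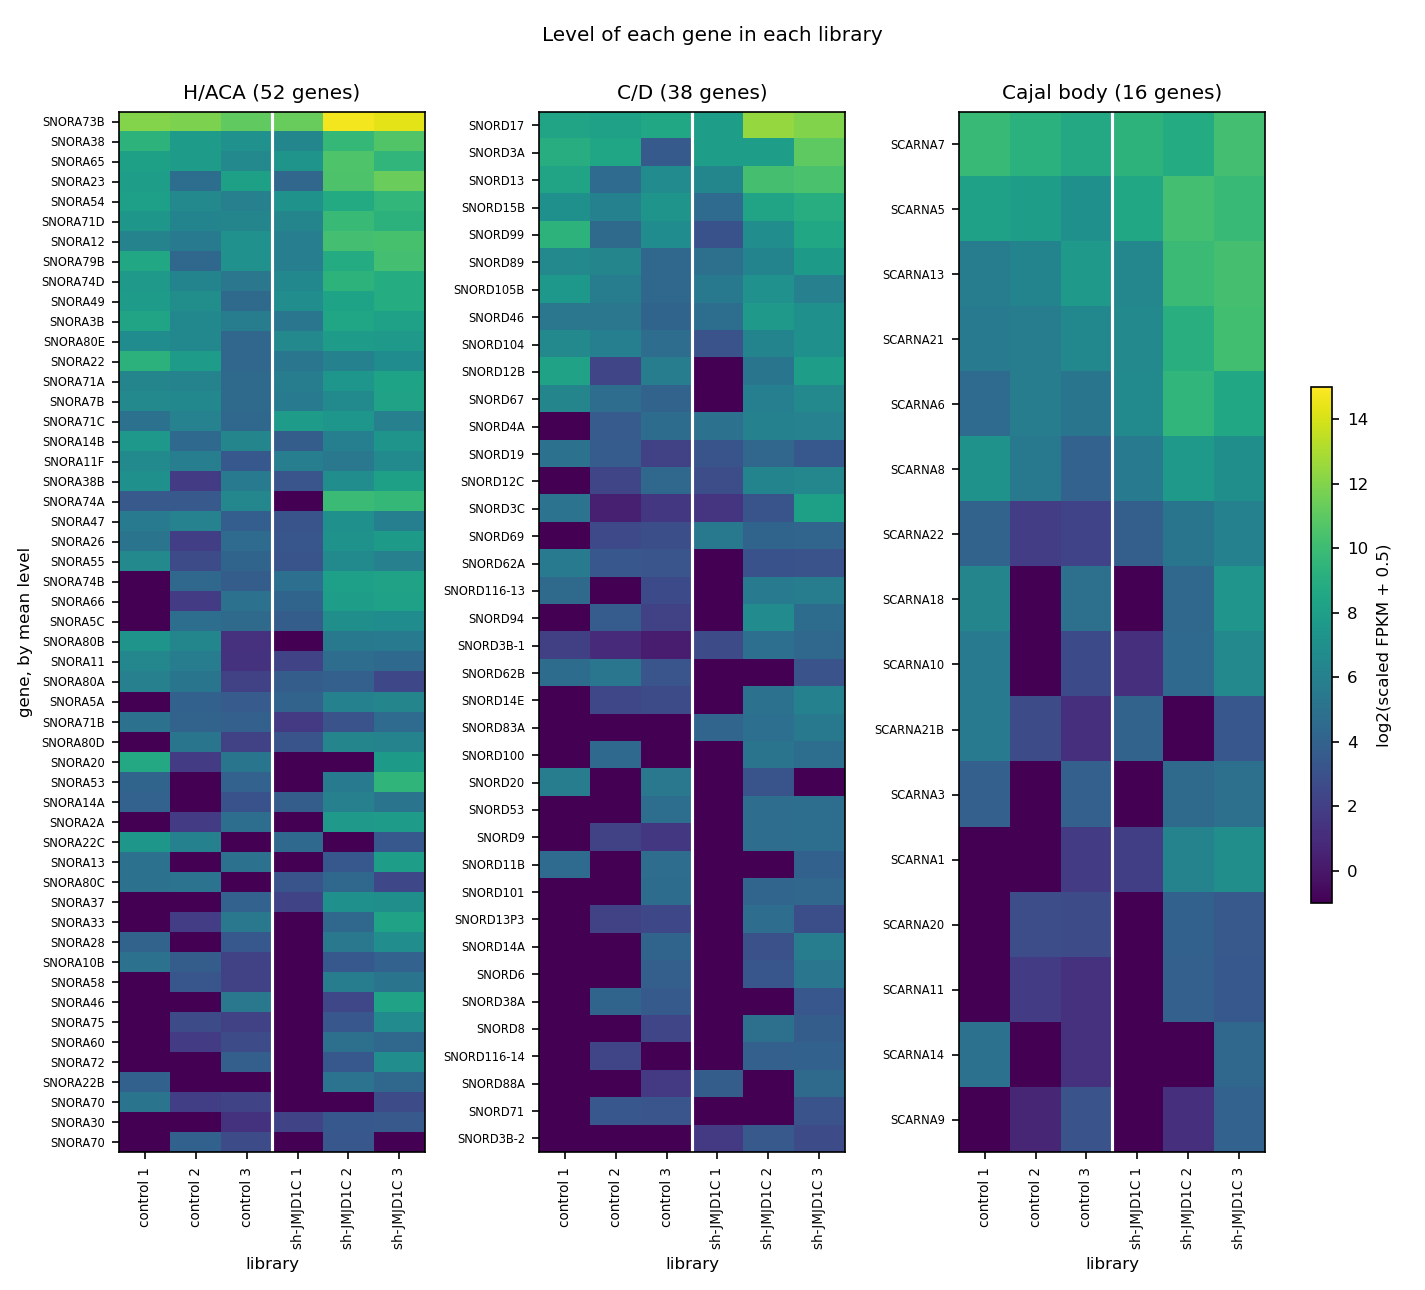
Each row is 1 of the 106 genes, ordered by mean level within its class, and each column 1 library (the white line separates controls from sh-JMJD1C); color gives log2(scaled FPKM + 0.5), and the darkest color is a listed 0. Rows of SNORA73B and SNORD17 are brightest in sh-JMJD1C 2 and 3, and the rows at the bottom of the panels are mostly dark in control 1 and sh-JMJD1C 1.

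The summed reads of the 106 genes took a larger share of sh-JMJD1C libraries 2 and 3 than of any other library. The share was 0.258%, 0.230% and 0.151% in control 1 to 3, against 0.158%, 0.820% and 1.06% in sh-JMJD1C 1 to 3. The groups overlapped, because sh-JMJD1C 1 lay within the range of the controls. Exact 95% binomial (Clopper-Pearson) intervals, which cover counting error only, were 0.147% to 0.156% for control 3, 0.152% to 0.164% for sh-JMJD1C 1 and 0.807% to 0.832% for sh-JMJD1C 2. The ratio of the group means was 3.19, it was 4.93 without both libraries numbered 1, and sh-JMJD1C 1 alone was at 0.742 times the control mean.

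All 3 classes showed this order. H/ACA snoRNAs took 0.140%, 0.128% and 0.0938% in the controls against 0.0757%, 0.578% and 0.588%, a ratio of means of 3.43. C/D snoRNAs took 0.0762%, 0.0635% and 0.0238% against 0.0413%, 0.156% and 0.353%, a ratio of 3.37 that was 1.81 without sh-JMJD1C 3 and 5.84 without both libraries numbered 1. Cajal body RNAs took 0.0411%, 0.0387% and 0.0338% against 0.0410%, 0.0848% and 0.118%, with the smallest ratio, 2.14. Without SNORA73B the share of the remaining 105 genes was 0.183%, 0.138% and 0.0923% in the controls, against 0.104%, 0.381% and 0.688% with sh-JMJD1C. Without the 4 U3 genes, the C/D share was 0.0231%, 0.0145% and 0.0218% against 0.00966%, 0.131% and 0.117%. Without SCARNA7, the Cajal body share was 0.0145%, 0.0145% and 0.0168% against 0.0186%, 0.0727% and 0.0842%, where all sh-JMJD1C libraries lay above all controls.

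Other RNA classes moved between the same libraries. RN7SL genes, whose RNA is part of the signal recognition particle, made up 0.378%, 0.590% and 1.77% of reads in the controls, against 1.18%, 15.7% and 18.5% with sh-JMJD1C. Genes annotated as small nuclear RNAs took 0.460%, 0.577% and 0.204% against 0.806%, 2.52% and 2.20%. Mitochondrial genes took 7.04%, 8.70% and 2.93% against 12.6%, 1.33% and 1.70%, and MALAT1, a nuclear long non-coding RNA, 1.73%, 1.25% and 2.40% against 0.292%, 0.0915% and 0.185%. The small nuclear RNA share was above all controls and MALAT1 below them in each sh-JMJD1C library, also in sh-JMJD1C 1. With reads of RN7SL and mitochondrial genes taken out of the totals, the ratios of means were 3.90 for H/ACA, 3.83 for C/D and 2.43 for Cajal body RNAs. The part of RNA composition in the differences described here was not tested. In bulk RNA, fewer cells with an RNA and less of it per cell cannot be told apart.

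**Figure D3:**
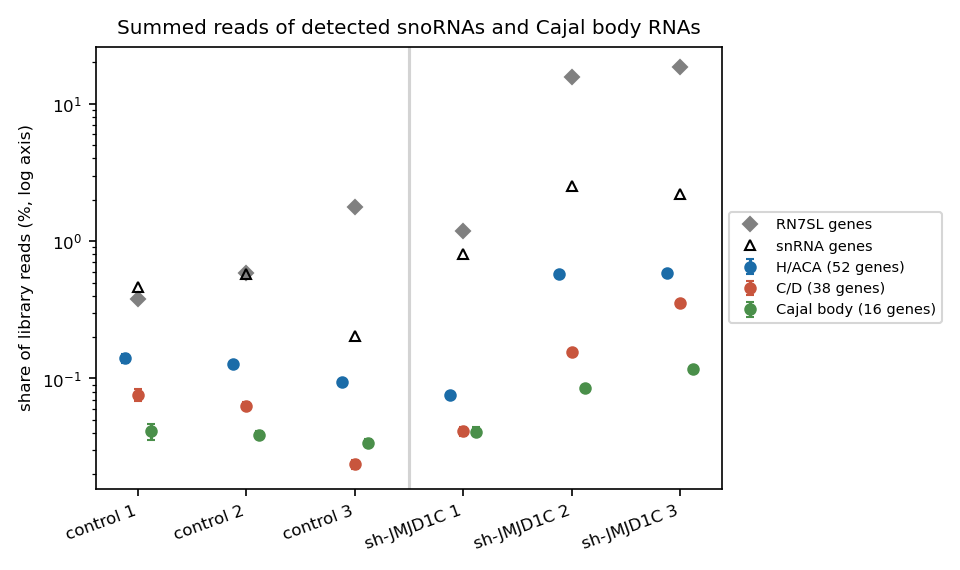
Points give the summed share of each library's reads (log axis) for the 3 classes, with exact 95% binomial intervals that are mostly smaller than the points, beside RN7SL genes and all genes annotated as small nuclear RNAs. All 3 classes are highest in sh-JMJD1C 2 and 3, while sh-JMJD1C 1 lies within the range of the controls, or below it for H/ACA.

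Gene by gene, most of the RNAs were higher in the sh-JMJD1C group, but the spread between its libraries was wide and 1 gene passed in limma. The log2 fold change, on the log2(scaled FPKM + 0.5) scale, was above 0 for 83 of 106 genes, against 44.2% of all 18383 genes tested. The median was 1.65 for H/ACA, 1.86 for C/D and 1.30 for Cajal body RNAs, against -0.16 for all genes, and 41 of 52, 28 of 38 and 14 of 16 were above 0. Without sh-JMJD1C 3 the medians were 0.55, 0.66 and 0.65, and without sh-JMJD1C 1 they were 2.73, 2.99 and 2.45. Other RNAs of at most 350 bases had a median of -0.48 (2240 genes). The 106 genes had to be above 0 in at least 3 libraries, while the filter on all genes tested was a mean of 0.5 FPKM. The medians of the 106 and of other genes are thus from sets chosen by unlike rules. With quantile normalization the class medians were 0.45, 1.14 and 0.39, still above 0, and 70 of 106 genes were above 0. Over annotated genes detected in at least 1 library and tested, the medians were 1.24 (71 H/ACA), 0.28 (70 C/D) and 1.41 (19 Cajal body), so the C/D median depended on the threshold of detection.

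By limma with Benjamini-Hochberg adjustment over all genes, 1 of 106 passed the threshold of 0.05 (SNORD83A), against 0.185% of all genes in either direction and 0.0598% in the higher direction. SNORD83A was above 0 in the sh-JMJD1C libraries alone and so entered the 106 only through the group where it is high. Its call is therefore no support for a difference of the 106 as a set. At an unadjusted p below 0.05, 16 genes were higher and 2 lower, where 9.82% and 10.1% of all genes were. The groups did not overlap for 12 genes in the higher and 2 in the lower direction. That is 11.3% and 1.89% of the members, beside 12.2% and 14.5% of all genes, so the share in the higher direction was near that of all genes. With a pseudocount of 0.1 and with FPKM as deposited SNORD3B-2 was called as well, where 0.169% and 0.114% of all genes were higher. SNORD3B-2 too was above 0 in the sh-JMJD1C libraries alone. By limma-voom on the reads of the 49 genes with at least 60 reads, 3 were called, all higher (SNORD3B-1, SCARNA5 and SCARNA6), where 3.71% of all genes were.

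The sh-JMJD1C libraries differed widely from each other. The median log2 difference of the 106 genes from the control mean was -1.44 in sh-JMJD1C 1, 2.26 in sh-JMJD1C 2 and 3.09 in sh-JMJD1C 3, and over all genes it was -0.14, -0.28 and -0.17. In sh-JMJD1C 1 the difference was positive for 33 of the 106 genes, and only 63 of them had a listed level above 0. Over the 49 genes with at least 60 reads the medians were -0.39, 2.13 and 2.67. For 57 of the 106 genes, both sh-JMJD1C 2 and sh-JMJD1C 3 were above all controls, that is 53.8% beside 20.4% of all genes, a count that sets sh-JMJD1C 1 aside. Without sh-JMJD1C 1, limma called 10 of 106 genes, all higher (2.81% of all genes), and limma-voom 30 of 48 (14.5% of all genes), of which 20 were H/ACA, 5 C/D and 5 Cajal body RNAs. Without both libraries numbered 1, limma called 0 genes and had 56 at an unadjusted p below 0.05 in the higher direction (10.6% of all genes), and limma-voom called 22 of 46 (7.39%). However, sh-JMJD1C 1 was set aside on the values of these same RNAs. Counts without it are thus no support for a difference. Leaving out sh-JMJD1C 2 or sh-JMJD1C 3 instead gave 0 called members in either fit.

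**Figure D4:**
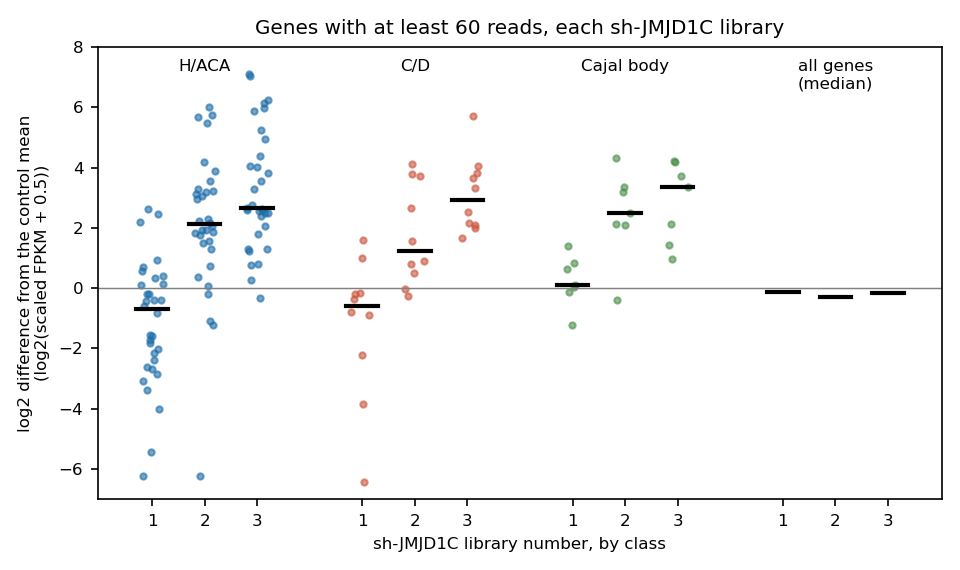
Each point is the log2 difference of 1 gene with at least 60 reads from the mean of the controls in 1 sh-JMJD1C library, by class; bars are medians, and the bars at the right are the medians of all 18383 genes tested. For H/ACA the medians are -0.70, 2.11 and 2.64 in libraries 1 to 3, for C/D -0.58, 1.24 and 2.93, and for Cajal body RNAs 0.09, 2.49 and 3.37.

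Of the RNAs that act in cleavage of the ribosomal RNA precursor, U17 and U13 were highest in sh-JMJD1C 2 and 3. SNORA73B (U17) had 4215, 3733 and 2213 scaled FPKM in control 1 to 3, against 2496, 27176 and 20826 in sh-JMJD1C 1 to 3. The means were 3387 ± 1045 and 16832 ± 12816, and the log2 fold change of 1.78 (SE 1.02) gave an adjusted p of 0.355 by limma. SNORA73B lies within RCC1 at chr1:28508559-28508762 (hg38, plus strand), in no exon of that gene. Its sequence from GENCODE 29 is printed because it holds most of the H/ACA reads, with the ACA box in capitals, 3 bases from the 3' end.
SNORA73B: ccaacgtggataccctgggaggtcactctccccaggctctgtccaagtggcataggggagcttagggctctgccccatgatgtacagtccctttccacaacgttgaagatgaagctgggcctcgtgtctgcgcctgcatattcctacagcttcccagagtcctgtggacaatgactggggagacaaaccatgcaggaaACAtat
SNORD13 (U13), which has no host gene, had 325, 23.8 and 107 scaled FPKM in the controls, against 81.9, 1260 and 1340 with sh-JMJD1C, with a log2 fold change of 2.45 (SE 1.35, limma adjusted p = 0.339).

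U3 did not follow that order. SNORD3A had 505, 355 and 10.9 scaled FPKM in the controls, against 254, 239 and 2114 with sh-JMJD1C, so that control 3 was the lowest and sh-JMJD1C 3 the highest. Its log2 fold change was 1.99 (SE 1.58, limma adjusted p = 0.506). Summed over the 4 U3 genes the reads were 289, 981 and 61 against 530, 495 and 3916. The near copies SNORD3B-1 and SNORD3B-2, whose annotated sequences are 92.4% identical, were low but did not overlap between groups. SNORD3B-1 had 2, 4 and 3 reads in the controls, against 12, 51 and 35 with sh-JMJD1C, and a log2 fold change of 3.68 by limma-voom (adjusted p = 0.0437). SNORD3B-2 had 0 reads in each control library, against 6, 20 and 11 with sh-JMJD1C, at least 12.9-fold higher per library read against a floor of 3 reads over the group. Reads of such copies could be split between them by the counting, so the level of a single U3 gene is uncertain. FPKM of the U3 genes SNORD3A, SNORD3B-1 and SNORD3B-2 also depends on annotated transcripts longer than the mature RNA.

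U14 was represented by SNORD14A and SNORD14E, with 14 and 15 reads in all. SNORD14A had 0, 0 and 6 reads in the controls, against 0, 1 and 7 with sh-JMJD1C, and SNORD14E had 0, 1 and 2 against 0, 4 and 8. Neither passed the test, and their groups overlapped.

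Among the other abundant H/ACA snoRNAs, the same libraries were high and none passed the test. SNORA12 had 71.9, 50.5 and 133 scaled FPKM in the controls, against 57.9, 1169 and 1305 with sh-JMJD1C, a mean 9.90 times that of the controls (log2 fold change 2.50, SE 1.21, limma adjusted p = 0.293). SNORA23 had 255, 27.2 and 268 against 18.7, 1454 and 2567. SNORA65, in an intron of RPL12, had 276, 228 and 91.2 against 157, 1560 and 748. In all of them sh-JMJD1C 1 lay within or below the controls. SNORA79B had a log2 fold change of 1.63 (SE 1.41), and SNORA38 0.81 (SE 1.18), with a direction that turned with quantile normalization and without sh-JMJD1C 3.

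The H/ACA genes whose groups did not overlap were less abundant. SNORA74B, in an intron of ATP6V0E1, had 0, 20.5 and 12.8 scaled FPKM in the controls, against 28.2, 265 and 302 with sh-JMJD1C, from 20 and 179 reads. Its log2 fold change was 4.67 (SE 1.57, limma adjusted p = 0.185). SNORA5A had 0, 15.4 and 11.5 against 16.9, 63.9 and 77.2. SNORA30 had 1 read in the controls, against 5 with sh-JMJD1C, a ratio of 5.24 per library read with a counting interval from 0.586 to 248, so its direction is not established at this depth. No H/ACA gene was lower in all sh-JMJD1C libraries than in all controls.

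SNORD83A, a C/D snoRNA in an intron of RPL3, was the 1 gene called by limma across all 6 libraries. It had 0 reads in each control library, against 3, 4 and 6 reads with sh-JMJD1C, that is 17.9, 27.7 and 43.6 scaled FPKM. This is at least 4.54-fold higher per library read against a floor of 3 reads over the group. The fitted log2 fold change of 5.83 (SE 0.39, limma adjusted p = 0.0292) depends on the added 0.5 and is no bound. SNORD83A had 137 reads per kilobase against 6324 over the longest transcript of RPL3 (log2 fold change 1.07). Intronic reads of RPL3 were not measured, so the reads of SNORD83A cannot be told apart from them. The call rests on 13 reads: it was lost with a pseudocount of 1, without the filter on low genes, without both libraries numbered 1 and on leaving out any 1 library other than sh-JMJD1C 1, where the adjusted p of limma on leaving out 1 library ran from 0.0571 to 0.211. Its sequence (GENCODE 29, chr22:39315213-39315307, hg38, minus strand) has the D box, CTGA, near the 3' end in capitals.
SNORD83A: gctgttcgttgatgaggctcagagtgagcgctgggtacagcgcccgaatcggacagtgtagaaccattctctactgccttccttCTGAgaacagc

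SNORD17 had the highest mean scaled FPKM of the C/D snoRNAs. It had 321, 289 and 368 scaled FPKM in the controls, against 251, 5700.1 and 4064 with sh-JMJD1C, with 17270 reads per kilobase over all libraries against 145 for its host SNX5. The log2 fold change was 2.47 (SE 1.16, limma adjusted p = 0.283, and 0.0958 by limma-voom). Without sh-JMJD1C 1, a library set aside on the values of these RNAs, it was called by both fits. Without sh-JMJD1C 2 or sh-JMJD1C 3 it was called by neither. The SD was 39.5 scaled FPKM among the controls and 2796 among the sh-JMJD1C libraries. It is long for a C/D snoRNA, at 237 bases, and its sequence (chr20:17962710-17962946, hg38, minus strand) is printed with the C box, ATGATGA, and the D box in capitals.
SNORD17: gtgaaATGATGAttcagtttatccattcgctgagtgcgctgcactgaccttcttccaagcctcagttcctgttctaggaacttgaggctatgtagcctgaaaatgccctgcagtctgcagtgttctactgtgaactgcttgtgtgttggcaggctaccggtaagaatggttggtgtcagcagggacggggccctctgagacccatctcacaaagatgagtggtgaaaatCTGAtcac

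The remaining abundant C/D snoRNAs showed no difference past the spread. SNORD99, in SNHG12, had 657, 22.3 and 108 scaled FPKM in the controls, against 7.67, 116 and 373 with sh-JMJD1C. SNORD12B, in ZFAS1, had 302, 4.53 and 53.8 against 0, 36.2 and 250, and SNORD15B, in RPS3, 130, 65.0 and 157 against 23.3, 329 and 492. The direction of each of these 3 changed when single libraries were left out. SNORD4A, in RPL23A, had 0, 11.5 and 25.1 against 31.5, 64.0 and 67.1, and SNORD69, in GNL3, 0, 5.36 and 6.69 against 44.2, 17.1 and 17.9. For both the groups did not overlap, with limma adjusted p of 0.249 and 0.182. SNORD69 had 0, 1 and 2 reads in the controls, against 6, 2 and 2 with sh-JMJD1C. The ratio was 3.49 per library read with a counting interval from 0.899 to 19.8, so the direction is not established at this depth.

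The C/D snoRNAs SNORD62A and SNORD62B were the 2 genes of the 106 that were lower in all sh-JMJD1C libraries than in all controls. SNORD62B had 1, 8 and 3 reads in the controls, against 0, 0 and 1 with sh-JMJD1C, a ratio of 0.0873 per library read with a counting interval from 0.00204 to 0.590. SNORD62A had 2, 2 and 3 against 0, 1 and 1, a ratio of 0.299 with an interval from 0.0303 to 1.57. The log2 fold change was -4.03 (SE 1.17) for SNORD62B and -2.37 (SE 1.22) for SNORD62A, and neither passed the test. Both lie in PRRC2B on chromosome 9 (SNORD62A at 131485665 to 131485750 and SNORD62B at 131490486 to 131490571, hg38, plus strand) and their sequences are 100% identical, so their reads cannot be told apart and they count as 1 observation. The shared sequence is printed for that reason, with the D box in capitals.
SNORD62A and SNORD62B: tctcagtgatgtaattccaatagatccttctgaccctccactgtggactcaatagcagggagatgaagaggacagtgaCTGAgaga

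Of the 3 RNAs called on reads, SCARNA5 and SCARNA6 are Cajal body RNAs. SCARNA5 had 291, 250 and 129 scaled FPKM in the controls, against 376, 1190 and 923 with sh-JMJD1C, with means of 223 ± 84.2 and 830 ± 415. SCARNA6 had 23.9, 52.9 and 37.0 against 96.4, 725 and 378. For both, each sh-JMJD1C library lay above each control, also sh-JMJD1C 1. By limma the log2 fold changes of SCARNA5 and SCARNA6 were 1.82 (SE 0.61, adjusted p = 0.186) and 3.03 (SE 0.78, adjusted p = 0.140), and by limma-voom on reads both passed, with adjusted p of 0.0479 and 0.0452. With quantile normalization the limma values were 0.31 and 1.91. Neither was called by limma-voom when control 1, control 3, sh-JMJD1C 2 or sh-JMJD1C 3 was left out.

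SCARNA5 and SCARNA6 lie in ATG16L1, an autophagy gene whose own log2 fold change was 0.21 by limma and 0.35 by limma-voom (adjusted p = 0.737 and 0.554). The difference between these RNAs and their host was not tested. Their sequences, 62.7% identical, are printed together because both were called on reads and lie in 1 host (chr2:233275727-233276002 and chr2:233288676-233288940, hg38, plus strand). Capitals mark the C and D boxes.
SCARNA5: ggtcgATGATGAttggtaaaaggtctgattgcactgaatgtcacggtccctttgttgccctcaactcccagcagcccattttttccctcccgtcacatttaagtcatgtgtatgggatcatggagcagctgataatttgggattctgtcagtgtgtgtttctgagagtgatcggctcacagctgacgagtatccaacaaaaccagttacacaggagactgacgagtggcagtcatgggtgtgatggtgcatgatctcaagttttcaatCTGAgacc
SCARNA6: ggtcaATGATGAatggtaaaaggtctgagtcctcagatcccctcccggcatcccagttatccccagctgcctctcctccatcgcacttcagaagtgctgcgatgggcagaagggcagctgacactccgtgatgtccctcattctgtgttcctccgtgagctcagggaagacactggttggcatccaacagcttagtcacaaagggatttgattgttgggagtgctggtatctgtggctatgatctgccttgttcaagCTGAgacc

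SCARNA21 and SCARNA1 also had groups that did not overlap. SCARNA21, in CHD3, had 45.6, 53.4 and 89.0 scaled FPKM in the controls, against 93.9, 549 and 1137 with sh-JMJD1C (log2 fold change 2.68, SE 0.91, limma adjusted p = 0.188). SCARNA1 had 2 reads in the controls, against 48 with sh-JMJD1C, a ratio of 25.2 per library read with a counting interval from 6.59 to 214, and sh-JMJD1C 1 gave 1 of the 48. SCARNA13, in SNHG10, had 53.8, 75.01 and 201 against 84.6, 950 and 1234, and SCARNA8 145, 44.1 and 15.7 against 47.7, 201 and 126, with overlap in both. SCARNA7, which held the largest share of the Cajal body reads, had 928, 608 and 394 against 645, 461 and 1173, with a log2 fold change of 0.22 (SE 0.58, limma adjusted p = 0.847). Its direction turned with FPKM as deposited, with quantile normalization and without control 3 or sh-JMJD1C 3.

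Most of these RNAs lie in host genes. By the annotation, 96 of the 106 lie within a longer gene on the same strand (77 of them in protein-coding genes), in 81 hosts, and 10 have none. Where several genes held an RNA, the host named here is the one with most reads, which need not be the gene it is cut from. Of 76 hosts tested by limma 0 passed. At an unadjusted p below 0.05, 7 were higher and 9 lower, where 9.82% and 10.1% of all genes were. By limma-voom, 4 of 78 hosts were called, 2 higher and 2 lower, where 3.71% and 1.81% of all genes were. The host counts were thus near the shares of all genes. RCC1, host of SNORA73B, and MAGED2, host of SNORA11, were higher, with log2 fold changes of 1.70 and 2.35 (adjusted p = 0.0436 and 0.0273). EIF5, host of SNORA28, and NOP58, host of SNORD11B, were lower, at -1.84 and -2.03 (adjusted p = 0.0396 and 0.0392). Over the RNAs with a tested host, the median log2 fold change of the hosts by limma was -0.11, and the hosts ranged from -1.96 to 2.08. Of the 90 genes with a tested host, 36 had a fold change above 0 beside a host below 0, and 35 were above 0 with their host. Another 11 were below 0 with their host and 8 below 0 beside a host above it. The 4 SNORA71 genes of SNHG17 ranged from -1.18 to 1.88 beside 0.79 for the host, and SNORA5A and SNORA5C of TBRG4 were at 3.28 and 3.05 beside 1.42. Reads per kilobase were above those of the host for 31 H/ACA, 9 C/D and 10 Cajal body RNAs, and not for the other 46. The host value is taken over its longest annotated transcript and does not measure its introns. The reads of these RNAs were therefore not separated from intronic reads of a host.

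**Figure D5:**
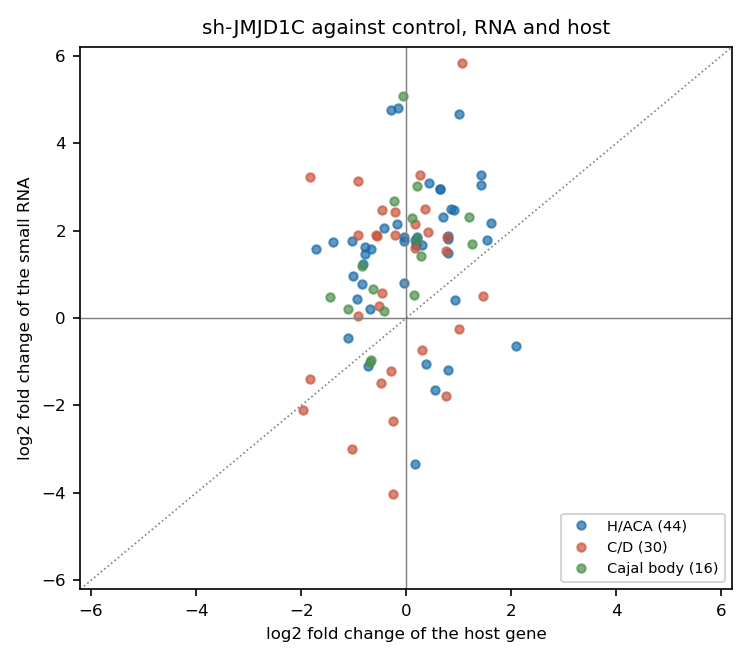
Each point is 1 of the 90 RNAs with a tested host; the horizontal axis is the log2 fold change of the host and the vertical axis that of the small RNA, sh-JMJD1C against control, with equal scales and the dotted line marking equal values. Hosts spread from -1.96 to 2.08 (median -0.11) and most RNAs lie above 0, in C/D (30), H/ACA (44) and Cajal body RNAs (16) alike.

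The conserved boxes were searched in the annotated sequences, on the RNA strand. ATGATGA or GTGATGA was within the first 15 bases of 21 of 38 C/D genes (55.3%), CTGA within the last 15 bases of 33 (86.8%), and ACA 3 bases from the 3' end of 36 of 52 H/ACA genes (69.2%). Among C/D symbols outside the 106 the shares were 59.8% and 87.3%, and among H/ACA symbols outside it 65.8% carried the ACA box. Among 6023 other annotated short RNAs the shares were 0.0996%, 4.25% and 0.946%. Of the Cajal body RNAs, 4 had both a C and a D box and 8 an ACA box. A sequence without a match has only no such letters in these windows. For 9 of the 106, another annotated gene of these symbols was at least 95% identical, so their reads could be split between copies.

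The core proteins that bind these RNAs had fold changes on both sides of 0. Of the 4 H/ACA core proteins, NHP2 went from 9.91 ± 3.37 to 35.4 ± 13.1 scaled FPKM and NOP10 from 47.6 ± 31.7 to 120 ± 46.2, while the pseudouridine synthase DKC1 was at 8.05 ± 1.80 and 6.51 ± 1.71 and GAR1 at 2.51 ± 2.18 and 1.02 ± 0.588. Of the 4 C/D core proteins, the methyltransferase FBL was at 17.1 ± 2.70 and 55.1 ± 21.7, SNU13 at 7.74 ± 0.886 and 17.9 ± 6.80, NOP56 at 3.08 ± 0.458 and 4.80 ± 1.49, and NOP58 at 10.2 ± 5.59 and 2.06 ± 0.569. By limma 0 of these 8 passed. At an unadjusted p below 0.05 the H/ACA core had 2 higher and 0 lower and the C/D core 2 higher and 1 lower. Of all genes, 9.82% were higher and 10.1% lower at that p. By limma-voom NHP2 and FBL were higher and NOP58 lower, each with an adjusted p of 0.039, where 3.71% of all genes were called higher and 1.81% lower. No gene of the lists described here was called by limma-voom when control 1, control 3, sh-JMJD1C 2 or sh-JMJD1C 3 was left out. The median log2 fold changes in limma were 0.57 for the H/ACA and 0.81 for the C/D core.

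Among the 2 H/ACA and 9 C/D assembly factors, 0 passed in limma (1 higher and 2 lower at an unadjusted p below 0.05), and the helicase RUVBL2 was called higher by limma-voom (2.44, adjusted p = 0.0226). Of all genes, 9.82% were higher and 10.1% lower at that unadjusted p in limma, and 3.71% were called higher by limma-voom. Of 11 tested genes for Cajal body and scaRNA proteins and 11 for snoRNA end processing and turnover, 0 passed in either fit (by limma 2 higher and 1 lower at an unadjusted p below 0.05), at medians of -0.13 and -0.41. COIL, the scaffold of Cajal bodies, was at 5.72 ± 1.15 and 3.67 ± 2.07 scaled FPKM, and WRAP53, which carries RNAs to Cajal bodies, at 1.003 ± 0.137 and 2.91 ± 0.971. Neither passed the test.

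Of 27 tested genes of the small nuclear RNAs, the class that Cajal body RNAs guide, 26 had a log2 fold change above 0, with a median of 2.05, against 44.2% of all genes above 0. Some of them, such as RNU6-7 and RNU6-9, and RNU1-27P and RNU11 with 1 read each, had reads in sh-JMJD1C libraries alone. Such genes passed the filter only through the group where they are high, which fixed their direction, so the count is only a description. RNU1-3 passed in limma on 4 reads, all in the sh-JMJD1C libraries (adjusted p = 0.0444). By limma-voom 2 of 12 genes were called, both higher, where 3.71% of all genes were. They were RNU4-1, an RNA of the major spliceosome (7483 ± 4046 against 61460 ± 38213 scaled FPKM, adjusted p = 0.029), and RNVU1-6, a variant of U1 (adjusted p = 0.0384). Genes of small nuclear RNAs have many near copies, among which the counting could split reads.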

How the data were processed

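TRIzol extraction and a VAHTS Universal V6 library kit were used, per the labels' protocols. The authors deposited FPKM per gene in columns for rising shares of the reads, per the file headers, and the column of the full library was used. The submitters' processing notes list Bowtie 0.12.2 and hg38 without saying for which step. Counting tool, gene models and strandedness: not given in the sources used here.

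Whole reads were recovered from FPKM, length and library total: all values were whole within 0.05 of a read. For 27488 of 29280 genes above 0 (93.9%), among them all 106 members, the length was the sum of all GENCODE 29 transcripts of the gene, so SNORD3 genes and SNORA71B are divided by more than 1 transcript. For the other 1792 genes a length that gave whole reads was searched. Symbols came from the gene name table for 57392 of 58174 IDs, and coordinates and sequences from GENCODE 29 (hg38).

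FPKM was scaled by median-ratio factors over genes above 0 in all libraries with a mean of at least 1. All genes averaging 0.5 FPKM or more (18383, all members among them) were fitted as log2(scaled FPKM + 0.5) on the group alone in limma 3.58.1 (R 4.3.3), with trend, two-sided, with Benjamini-Hochberg adjustment at 0.05. The fold change of low genes depends on the added 0.5 and can be too large or too small. It was above that of limma-voom for SNORA74B (4.67 against 3.27) and below it for SNORD3B-1 (2.91 against 3.68). Recovered reads of 11876 genes with at least 60 reads were fitted with limma-voom as an alternative, after the finding that the FPKM hold whole reads. Both scripts were tested on simulated data.

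Named were JMJD1C, the 6 genes of each class with the highest mean, up to 4 per direction with the largest fold change among those whose groups do not overlap, every gene past the threshold, RNAs with a role in cleavage of the ribosomal RNA precursor, listed genes past the threshold and core proteins. The members and lists were chosen with earlier results of these data known. Chosen after their values were seen were SNORD3B-1, the SNORA71 and SNORA5 genes named with their hosts, the hosts called by limma-voom, the printed sequences, the removal of dominant genes from shares, the leave-outs on reads, the subset with at least 60 reads, the 15-base windows for boxes and the choice of host as the same-strand gene over 400 bases with most reads. Boxes could not be compared with genomic windows, since no genome was used, and other annotated RNAs of 50 to 450 bases took their place. Identity is 100% minus the edit distance over the longer sequence (edlib). Alternatives were other pseudocounts, no filter, other scalings, a replicate block, limma-voom, and each library left out in turn.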

Additional observations from a re-analysis of the deposited data

How the results depend on the processing

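Depth limits these results: 57 of 106 genes had fewer than 60 reads over the 6 libraries, and in control 1 a single read of a typical member was worth 15.8 scaled FPKM. All class medians and ratios of summed shares stayed above 0 and above 1 in every alternative. The limma count of called members, 1, became 2 with a pseudocount of 0.1 and with FPKM as deposited, and 0 with a pseudocount of 1, without the filter, without both libraries numbered 1, and for members detected in all 6 libraries. Leaving out 1 library gave 0 to 10 called members (10 without sh-JMJD1C 1). With the replicate number as a block it was 0, with SNORD83A at an adjusted p of 0.0924. The labels name nothing but the number that libraries with the same number share. Their deviations from the group means correlated at 0.00886, 0.140 and 0.220 for numbers 1 to 3, so they were not treated as pairs.

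On recovered reads limma-voom called 3 members, 22 without both libraries numbered 1, 30 without sh-JMJD1C 1, 5 without control 2 and 0 without any other library. For the gene lists, limma called 1 gene, and 0 with a pseudocount of 1, without the filter, with quantile normalization, with the replicate block or without both libraries numbered 1, and 0 to 6 on leaving out 1 library. Limma-voom called 6, 8 without both libraries numbered 1, 15 without sh-JMJD1C 1, 10 without control 2 and 0 without any other library. JMJD1C was at -2.49 in limma-voom (adjusted p 0.0254) and -2.83 without both libraries numbered 1 (0.0288). The Cajal body median was 3.18 in limma-voom without both libraries numbered 1. Quantile normalization moved the median of all genes from -0.16 to -0.01, and FPKM as deposited to -0.38.

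Of 427 alternative values for the 30 named members, 15 turned direction. SNORA38 was at -0.58 with quantile normalization and ranged from -0.041 (without sh-JMJD1C 3) to 2.10 on leaving out 1 library. SNORD99 was at 2.02 without both libraries numbered 1, 0.017 in limma-voom and 1.83 in limma-voom without both, and ranged from -1.92 to 0.84 on leaving out 1 library. SNORD15B was at -0.86 with quantile normalization and ranged from -0.28 to 1.88. SNORD12B was at 2.49 without both libraries numbered 1 and ranged from -3.32 to 1.16. SCARNA7 was at -0.092 with FPKM as deposited and -1.26 with quantile normalization, and ranged from -0.14 to 0.57. The causes were not tested.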

Other observations

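A few RNAs had most of their reads in the libraries numbered 3, within both groups. SNORA46 had 0, 0 and 22 reads in control 1 to 3, against 0, 1 and 57 in sh-JMJD1C 1 to 3. SNORA33, in an intron of RPS12, had 0, 1 and 21 against 0, 4 and 57, and SNORA13 had 2, 0 and 16 against 0, 2 and 47. SNORA53 had 2, 0 and 15 reads against 0, 18 and 255. The U5 RNAs of the spliceosome also had most reads in the libraries numbered 3. RNU5A-1 had 6, 1 and 192 reads against 1, 0 and 1140, and RNU5B-1 had 1, 0 and 559 against 0, 2 and 1476. RNU4ATAC, an RNA of the minor spliceosome, was instead lowest in control 3, at 56.8 scaled FPKM against 4076 and 2751 in control 1 and 2, and SNORD3A was lowest there as well. These genes were chosen after their values were seen, and what the libraries numbered 3 share is not given in the labels.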
